A study of Mus musculus with 2 samples.

Results

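The genes described here carry fatty acids through a cell: into it, through synthesis and desaturation, into triglyceride and lipid droplets, and into mitochondrial oxidation. Their expression was measured on 2 Affymetrix arrays of mouse fetal lung epithelium, 1 array of epithelium cultured with the GSK3 inhibitor CHIR99021 (CHIR+) and 1 of epithelium cultured without it (CHIR-). The 40 genes were listed by name, with earlier results of these data known. A gene was read by the probe sets whose annotation names that gene alone. Such probe sets were found for 39 of the 40 genes, out of 18193 genes on the array, and there were 87 of them. Acsl1, an enzyme that activates long-chain fatty acids, had none in the annotation used. Fabp4, a fatty acid carrier of adipocytes and macrophages, and Acacb, the acetyl-CoA carboxylase of the mitochondrial surface, had only probe sets below a background floor, set on each array from receptors of the nose, on both arrays. The remaining 37 genes were above the floor on at least 1 array, 35 of them on both.

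In the CHIR+ culture, epithelium taken from ICR mice at embryonic day 11 was grown in Matrigel, a basement membrane gel, with FGF10 and CHIR99021 for 4 days, broken into pieces, and grown for a further 2 days with FGF10 and CHIR99021. The CHIR- culture had the same history, the 4 days with CHIR99021 included, but was without the inhibitor for the last 2 days. CHIR99021 blocks glycogen synthase kinase 3 and thereby stabilises beta-catenin, and the comparison is between keeping it and withdrawing it. The labels do not say how many embryos each culture came from. With 1 array per condition there was no spread between cultures, no test was possible, and every fold below is a single ratio of 2 signals. A signal here is the MAS5 estimate of a probe set's brightness on a linear scale, and a gene is given by its brightest probe set unless another is named.

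Fatty acids reach a cell as free acids or from lipoproteins, are bound by carrier proteins, and are activated to acyl-CoA before they can be used. Cells also make them from citrate through acetyl-CoA and malonyl-CoA, lengthen and desaturate them, and either store them as triglyceride or break them down in mitochondria. In the lung, alveolar type 2 cells are known for making and taking up fatty acids for the phospholipids of surfactant. SREBP1 is the main transcriptional activator of the synthetic enzymes, and PPAR gamma of uptake and storage genes in adipocytes.

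Most genes on the arrays had a lower signal in CHIR+ than in CHIR-, with a median log2 ratio of -0.42 over 12917 measured genes, and in 5 equal groups by signal the median lay between -0.53 in the dimmest and -0.21 in the brightest. The floor, set at the 95th percentile of 80 olfactory and vomeronasal receptor probe sets, was at a signal of 12.7 in CHIR+ and 19.2 in CHIR-. The ratio of 3' to 5' signal was 3.18 in CHIR+ and 1.29 in CHIR- for beta-actin, and 1.62 and 0.737 for Gapdh, so the CHIR+ array read less of the 5' part of both transcripts. Its part in the results below was not tested. Axin2, a feedback target of beta-catenin, had a signal of 267 in CHIR+ and 58.2 in CHIR-. Lef1, its DNA-binding partner, had 225 and 29.8, and Sox9, a factor of the distal lung tip, had 771 and 70.1.

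The genes did not move as a block. A few were many-fold apart: the fatty acid receptor Cd36, the lipase Liph and the nuclear receptor Pparg were far lower in CHIR+, and the apolipoprotein Apoe was far higher. Among the rest, storage and oxidation genes mostly had lower signals, and synthesis and desaturation genes had ratios of both signs, with Fasn, Scd1, Elovl6 and Srebf1 higher in CHIR+ and Acly, Acaca, Me1, Elovl1 and Elovl5 lower. Fasn, Scd1, Elovl6 and Srebf1 were all within 2-fold, as were Acly and Acaca. Of the 37 measured genes 1 was at least 2-fold higher in CHIR+, against a background of 1.9% of all measured genes. At least 2-fold lower were 12, 32.4% against a background of 18.4%. The genes were chosen with earlier results of these data known. These shares, and those of the subgroups below, are thus not from a list made blind to the data. Apoe and Liph counted as measured through 1 array only, so each of them had to differ. At a 1.5-fold threshold 3 genes were higher (background 5.05%) and 24 were lower (background 38.7%), and at 3-fold 1 was higher (background 0.627%) and 4 were lower (background 6.29%). The median log2 ratio was -0.90 over the 37 genes, against -0.42 over all measured genes. A log2 ratio above 0, with signals under the floor raised to it, was seen for 8 of the 37 genes, against a background of 22.6%. In such samples fewer cells of a type and less RNA per cell cannot be told apart.

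**Figure D1:**
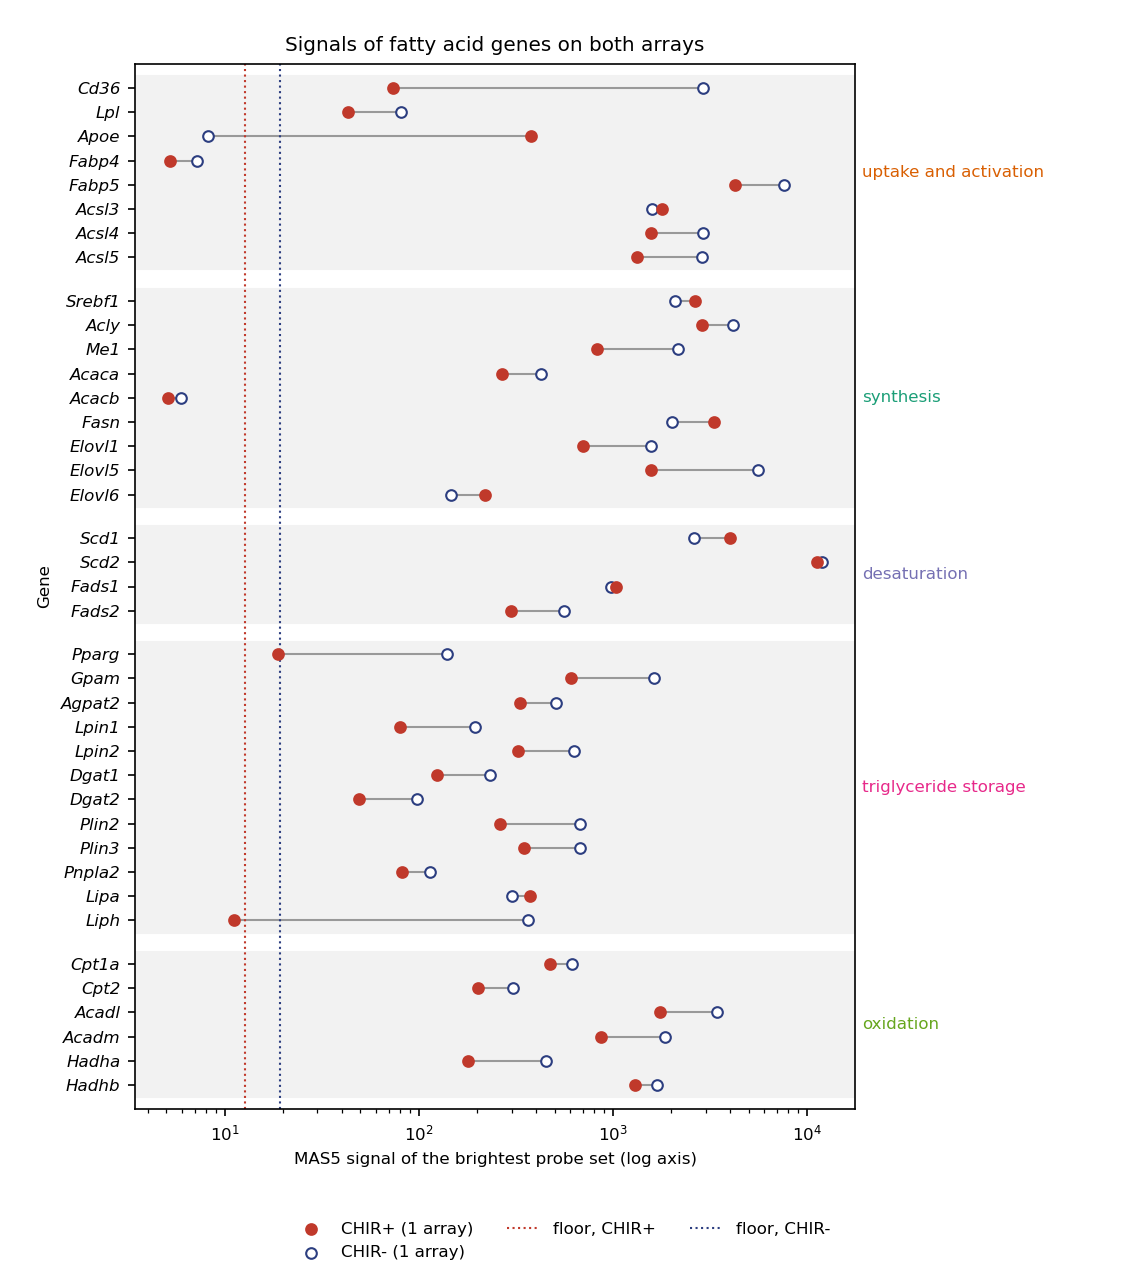
MAS5 signal of the brightest probe set of each of the 39 genes on a log axis, with CHIR+ as filled and CHIR- as open circles (1 array each) and the floor of each array as a dotted line. The longest gaps belong to Cd36, Apoe and Liph, while Acsl3, Scd2 and Fads1 have nearly the same signal on both arrays.

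The ratios depend on how the arrays are brought to a common scale, because the signals of most genes were lower on the CHIR+ array. After loess, which compares each gene with genes of like signal, 2 of the 37 genes were at least 2-fold higher in CHIR+ (Apoe and Elovl6, background 6.33%) and 6 were at least 2-fold lower (Cd36, Liph, Pparg, Elovl5, Gpam and Me1, background 7.13%). Relative to the median gene, 3 were higher (Apoe, Fasn and Scd1, background 4.9%) and 5 were lower (Cd36, Liph, Pparg, Elovl5 and Gpam, background 8.64%). These 5 lower genes were at least 2-fold lower on the authors' scale and under all 4 other scalings run, and Apoe was at least 2-fold higher under all of them. On the authors' scale and under the 4 other scalings, 8 genes had a positive log2 ratio each time (Apoe, Acsl3, Srebf1, Fasn, Elovl6, Scd1, Fads1 and Lipa) and 25 had a negative one each time. These counts were not made over all genes, of which 22.6% had a ratio above 0 on the authors' scale. The median over all measured genes was higher under each of the 4 other scalings, so a positive ratio on the authors' scale mostly stays positive. The sign depended on the scaling for Scd2, Pnpla2, Cpt1a and Hadhb.

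**Figure D2:**
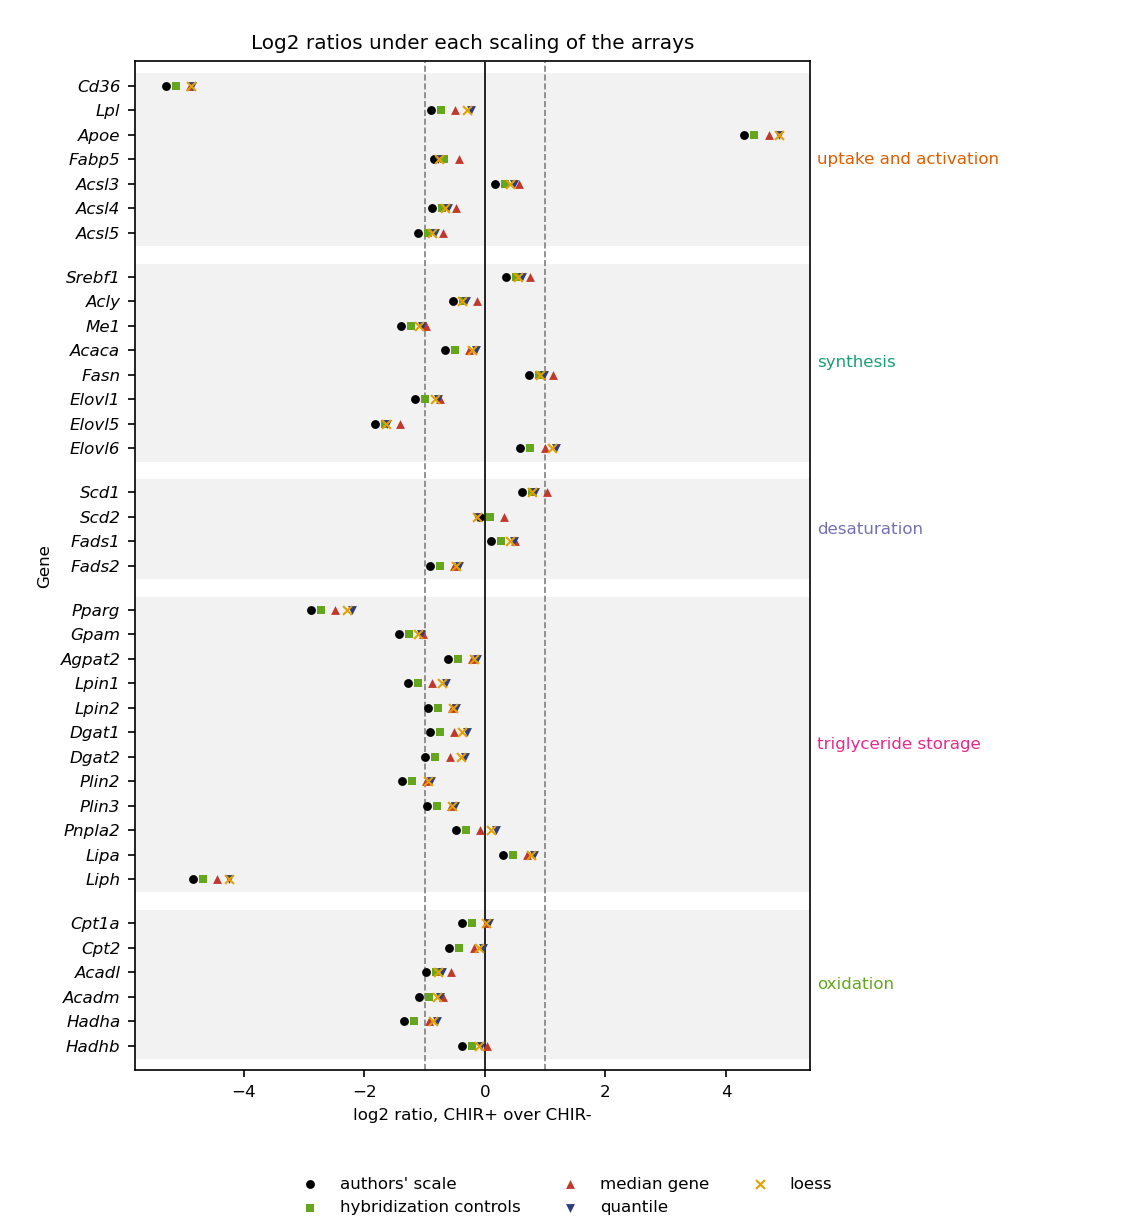
Log2 ratio of CHIR+ over CHIR- (x axis) of each of the 37 measured genes on the authors' scale and under 4 other scalings, with dashed lines at 2-fold. The values of Apoe and Liph are bounds, since 1 array was below the floor. Every gene moves to the right under at least 1 other scaling, and Cd36, Liph, Pparg, Elovl5 and Gpam stay beyond the left dashed line under all of them.

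The promoters of 4 genes at the ends of this range are shown so that the DNA upstream of genes with low and with high ratios can be read side by side. Cd36 and Liph had the lowest log2 ratios, and Fasn and Elovl6 were among the highest of the genes above the floor on both arrays, though within 2-fold. They were chosen after their values were seen, among genes with a single annotated start in the table. Each sequence is the 250 bases before the RefSeq start on assembly GRCm38.p6, 5′ to 3′ on the gene's strand, and capitals mark every match to the motifs searched on both strands. The Fasn sequence is from the minus strand at chr11:120824548-120824797, the Elovl6 sequence from the plus strand at chr3:129532136-129532385, the Cd36 sequence from the minus strand at chr5:17835897-17836146 and the Liph sequence from the minus strand at chr16:21995543-21995792.
Fasn: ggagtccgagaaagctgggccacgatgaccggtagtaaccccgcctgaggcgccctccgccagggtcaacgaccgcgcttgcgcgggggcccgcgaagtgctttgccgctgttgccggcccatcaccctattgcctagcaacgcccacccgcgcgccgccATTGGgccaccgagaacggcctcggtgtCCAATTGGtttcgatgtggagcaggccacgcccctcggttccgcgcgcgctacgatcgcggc
Elovl6: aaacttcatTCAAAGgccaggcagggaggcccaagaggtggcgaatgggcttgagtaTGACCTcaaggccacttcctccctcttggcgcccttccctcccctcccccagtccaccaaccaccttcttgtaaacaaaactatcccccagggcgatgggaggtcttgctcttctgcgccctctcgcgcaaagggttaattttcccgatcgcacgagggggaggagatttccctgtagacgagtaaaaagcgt
Cd36: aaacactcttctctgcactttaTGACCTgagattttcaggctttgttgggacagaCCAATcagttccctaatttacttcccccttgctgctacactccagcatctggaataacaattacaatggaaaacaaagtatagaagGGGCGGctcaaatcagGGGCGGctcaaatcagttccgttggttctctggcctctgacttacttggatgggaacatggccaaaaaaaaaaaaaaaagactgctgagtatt
Liph: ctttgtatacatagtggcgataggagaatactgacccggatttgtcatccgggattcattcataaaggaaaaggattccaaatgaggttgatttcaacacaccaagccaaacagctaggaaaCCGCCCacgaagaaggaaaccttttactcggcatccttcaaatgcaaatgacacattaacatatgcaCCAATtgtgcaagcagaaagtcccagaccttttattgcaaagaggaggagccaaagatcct

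The motifs were the sterol regulatory element TCACNCCAC that SREBP proteins bind, the CCAAT box of NF-Y, the GC box GGGCGG of Sp1, the nuclear receptor half-site AGGTCA and the TCF/LEF core CTTTGA. Of 32851 promoter windows of this length in the table, 1.05% held the sterol element, 33.8% a CCAAT box, 32.7% a GC box, 14% the half-site and 13.8% the TCF/LEF core. The table held 44 windows for 32 of the 40 genes, and 1, 20, 25, 11 and 4 of these windows held those motifs in that order. Fasn had 3 CCAAT matches, at 90, 62 and 59 bases before the start, and the matches at 62 and 59 overlap on opposite strands. Cd36 had 1 CCAAT box, 2 GC boxes and 1 half-site. Elovl6 had 1 half-site and 1 TCF/LEF core, and Liph had 1 CCAAT box and 1 GC box. A match describes the letters in a window, and binding was not measured.

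Uptake and activation genes divided into extremes and small differences. Cd36, the membrane receptor that takes up long-chain fatty acids and oxidised lipoproteins, had a signal of 73.5 in CHIR+ and 2895 in CHIR-, 39.4-fold lower in CHIR+. Its second probe set had 59.5 and 1695, 28.5-fold lower, and another was below the floor at 8.81 in CHIR+ against 237 in CHIR-, at least 18.6-fold lower. All 3 probe sets of Cd36 thus gave the same direction, and 0.0619% of measured genes had a lower ratio than its brightest one. Apoe, the lipoprotein component that is recognised by receptors of the LDL receptor family, went the other way. Its single probe set had 379 in CHIR+ and 8.19 in CHIR-, the CHIR- value below the floor, so it was at least 19.8-fold higher in CHIR+.

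Lipoprotein lipase (Lpl), which frees fatty acids from circulating triglyceride, had 43.4 in CHIR+ and 80.7 in CHIR-, under the 2-fold threshold. Fabp5, the epidermal type of fatty acid carrier, had 4268 in CHIR+ and 7646 in CHIR- by its brightest probe set, 1.79-fold lower. Its other probe set had 1251 and 3323, 2.66-fold lower, so the size of the difference depended on the probe set and its direction did not.

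The acyl-CoA synthetases, which activate fatty acids by joining them to coenzyme A, differed from each other. Acsl5 had 1334 in CHIR+ and 2869 in CHIR-, 2.15-fold lower. Acsl4, which prefers arachidonic acid and similar polyunsaturated acids, had 1577 and 2911 by its brightest probe set, 1.85-fold lower. Its other probe sets were further apart, 162 in CHIR+ against 1413 in CHIR- (8.74-fold lower) and 72.2 against 278 (3.85-fold lower). Acsl3, the form found on the endoplasmic reticulum and lipid droplets, had nearly equal signals of 1784 in CHIR+ and 1586 in CHIR-, and its 3 probe sets had log2 ratios between -0.30 and 0.17. Of the 7 measured genes of this group 1 was higher, 2 were lower (28.6% against the background of 18.4%) and 4 were within 2-fold, with a median log2 ratio of -0.88 against -0.42 over all measured genes.

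Cd36, Lpl, Fabp4, Pparg and Apoe are also expressed by adipocytes, macrophages or endothelium, so markers of other cells were read beside them. Of 4 adipocyte markers with a probe set 0 were above the floor in CHIR+ and 1 in CHIR- (Retn, at a signal of 21.8), with summed signals of 23.6 and 40.2, and Adipoq was below the floor on both arrays. Of 7 endothelial markers 1 was above the floor in CHIR+ and 2 in CHIR-, with sums of 51.4 and 101, and Pecam1 and Cdh5 were below it on both. Of 8 macrophage and blood markers 5 were above the floor on each array (Cd68, Csf1r, Adgre1, Lyz2 and Cd14). Their sums over the 8 were 186 and 387, while Ptprc and Mrc1 were below the floor on both. Among the macrophage and blood markers the largest difference was that of Cd14, with 37.1 in CHIR+ and 177 in CHIR-. Of 10 mesenchymal markers 4 were above the floor on each array, with sums of 192 and 257 over the 10. The 4 were Col1a1 (35.8 in CHIR+ and 24.7 in CHIR-), Col1a2 (49.3 and 63.8), Col3a1 (54.6 and 88.7) and Tcf21 (13.2 and 24.1). Twist1, Pdgfrb and Fgf10 were below the floor on both. The epithelial markers had sums of 15843 and 31731, with 7 of 8 above the floor in CHIR+ and all 8 in CHIR-. Of these 8 markers 4 were at least 2-fold lower in CHIR+ (50% against the background of 18.4%) and 0 higher (background 1.9%). Their median log2 ratio was -1.05, against -0.42 over all measured genes. Krt19 had 278 in CHIR+ and 4030 in CHIR-, 14.5-fold lower, Krt8 was 2.45-fold lower and Krt18 was 2.38-fold lower. Epcam was at 3743 in CHIR+ and 3846 in CHIR-, and Nkx2-1, the lung identity factor, was below the floor in CHIR+ and at 52.0 in CHIR-. Whether other cells contributed to the signals of the shared genes was not tested.

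Synthesis genes went in both directions. Srebf1, which encodes SREBP1, had 2652 in CHIR+ and 2080 in CHIR-, 1.27-fold higher, by its single probe set. Fatty acid synthase (Fasn), which builds palmitate from malonyl-CoA, had 3331 in CHIR+ and 2007 in CHIR-, 1.66-fold higher, also by 1 probe set. Of all measured genes 96.5% had a lower ratio than Fasn and 90.9% a lower one than Srebf1. Both stayed under the 2-fold threshold on the authors' scale, and Fasn passed it relative to the median gene, at a log2 difference of 1.13.

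The enzymes that feed Fasn had lower signals in CHIR+. ATP citrate lyase (Acly), which makes cytosolic acetyl-CoA, had 2866 in CHIR+ and 4138 in CHIR- by its brightest probe set, 1.44-fold lower. Its second, nearly as bright, had 2841 and 3414, 1.20-fold lower, and a dimmer one had 202 and 719, 3.56-fold lower. Acetyl-CoA carboxylase alpha (Acaca), which makes malonyl-CoA for synthesis, had 267 in CHIR+ and 424 in CHIR-, 1.59-fold lower, and its dimmer probe set was 1.52-fold lower. Malic enzyme (Me1), a source of the NADPH that synthesis uses, had 822 in CHIR+ and 2152 in CHIR-, 2.62-fold lower. A further probe set of Me1 had 930 and 1829 and was just under the threshold, at 1.97-fold. By their brightest probe sets, Srebf1 and Fasn had signs opposite to those of Acly, Acaca and Me1. This held on the authors' scale and under the other 4 scalings. Of all measured genes 42.7% had a lower ratio than Acly, 33.9% than Acaca and 8.96% than Me1. Relative to the median gene the log2 ratios of Acly and Acaca were -0.13 and -0.27, so both lay near the typical gene of the array.

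The elongases, which add carbons to existing fatty acids, divided in a similar way. Elovl6, which lengthens palmitate towards stearate, had 220 in CHIR+ and 146 in CHIR-, and its 3 probe sets had log2 ratios of 0.58, 0.27 and at least 0.29. Elovl5, which lengthens polyunsaturated acids, had 1577 in CHIR+ and 5558 in CHIR-, 3.52-fold lower. Its other probe set agreed closely, with 1378 and 4865, 3.53-fold lower. Elovl1, which makes very long saturated chains, had 701 in CHIR+ and 1562 in CHIR-, 2.23-fold lower, and all 4 of its probe sets were lower, by 1.96-fold to 2.91-fold. Of the 8 measured synthesis genes 0 were 2-fold higher, 3 were lower (37.5% against the background of 18.4%) and 5 were within 2-fold, with a median log2 ratio of -0.60 against -0.42 over all measured genes. After loess 1 of them was higher and 2 were lower.

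Desaturation genes were the subgroup nearest to equal signals on the authors' scale. Scd1, the stearoyl-CoA desaturase that makes oleate, had 4016 in CHIR+ and 2616 in CHIR-, 1.53-fold higher, and a dimmer probe set had 430 and 427. Fads1, a front-end desaturase of polyunsaturated acids, had 1037 in CHIR+ and 972 in CHIR-, and its other probe set had 130 and 123. Its partner Fads2 had 298 in CHIR+ and 562 in CHIR-, 1.89-fold lower, while its dimmest probe set had 165 and 115, 1.44-fold higher, so the probe sets of Fads2 disagreed in sign. Of the 4 genes 0 passed 2-fold by its brightest probe set, and the median log2 ratio was 0.0014.

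Scd2, the desaturase form of embryonic tissue and brain in the mouse, showed the widest disagreement between probe sets of all 37 genes. Its brightest had 11254 in CHIR+ and 11977 in CHIR-, a log2 ratio of -0.09. The others had 995 against 2237, 2.25-fold lower in CHIR+, and 347 against 3979, 11.5-fold lower. The level of Scd2 in CHIR+ relative to CHIR- therefore depends on the probe set taken, and cross-hybridisation between the related Scd genes was not examined.

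**Figure D3:**
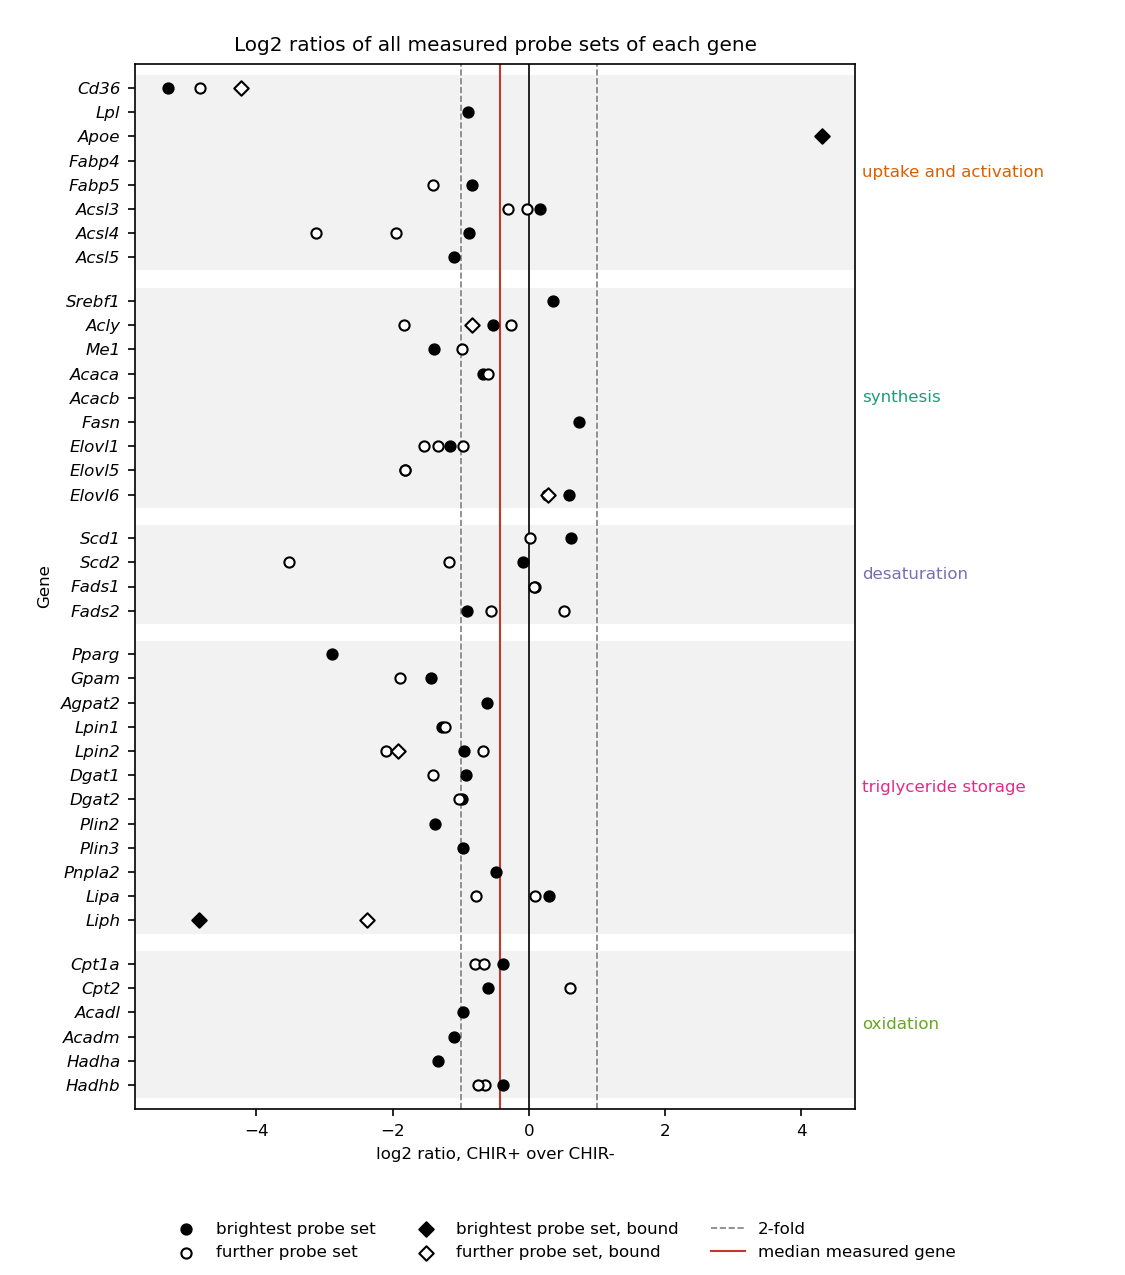
Log2 ratio of CHIR+ over CHIR- (x axis) of every probe set above the floor on at least 1 array, with the brightest probe set of a gene filled, the others open, and diamonds for ratios that are bounds. Fabp4 and Acacb have no point because all their probe sets were below the floor. The probe sets of Elovl5 and Lpin1 lie close together, those of Cd36 all lie far to the left, and those of Scd2, Acsl4 and Acly are spread out.

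More than 1 measured probe set was available for 24 of the 37 genes. The spread between the highest and lowest log2 ratio of a gene was 3.43 for Scd2, 2.47 for Liph (both of whose ratios are bounds), 2.24 for Acsl4 and 1.57 for Acly, and 0.0023 for Elovl5, 0.012 for Fads1 and 0.034 for Dgat2. All measured probe sets were lower in CHIR+ for 27 genes and all higher for 6, and the signs were mixed for Acsl3, Fads2, Lipa and Cpt2. These counts include 13 genes with 1 measured probe set, where no disagreement was possible, and they were not made over all genes. By the brightest probe set, 22.6% of all measured genes had a ratio above 0, so lower signals were common on the array. Of 34 dimmer probe sets of the fatty acid genes with signal over the floor in both cultures, 29 (85.3%) had the sign of the brightest one of their gene. This was so for 79.1% of 9179 such probe sets over all genes. A lower ratio than the brightest one was seen for 24 of the 34 (70.6%), against 65.7% over all genes. Between probe sets of 1 gene, the log2 ratios of 5335 genes had an SD of 0.56, which measures probes and not cultures.

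Triglyceride storage genes had the lowest median of the subgroups, a log2 ratio of -0.98. Pparg, the nuclear receptor that drives fat storage in adipocytes, had 18.7 in CHIR+, close to the floor, and 139 in CHIR-, 7.41-fold lower by its single probe set. Gpam, the mitochondrial enzyme that takes the first step of glycerolipid synthesis, had 607 in CHIR+ and 1634 in CHIR-, 2.69-fold lower, and its dimmer probe set had 15.4 and 56.8. Lpin1, a phosphatidate phosphatase, had 80.4 in CHIR+ and 195 in CHIR-, 2.43-fold lower, and its other probe set was 2.34-fold lower. Plin2, a coat protein of lipid droplets, had 260.5 in CHIR+ and 679 in CHIR-, 2.61-fold lower. These 4 genes passed 2-fold on the authors' scale, and only Pparg and Gpam of them did so under all 4 other scalings as well.

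Most of the remaining enzymes of triglyceride assembly were just under 2-fold by their brightest probe sets. Dgat2, which takes the last step, had 49.3 in CHIR+ and 97.8 in CHIR-, 1.98-fold lower, and Dgat1, which takes the same step, had 123 and 233, 1.89-fold lower. The dimmer probe set of Dgat2 had 24.1 and 48.9, 2.03-fold lower, and that of Dgat1 had 17.4 and 46.0, 2.64-fold lower. Plin3, a further droplet coat protein, had 347 in CHIR+ and 677 in CHIR-, 1.95-fold lower. Lpin2, a phosphatase like Lpin1, had 324 in CHIR+ and 627 in CHIR-, 1.94-fold lower, and its 4 probe sets were lower by 1.59-fold to 4.29-fold, 1 of these folds being a bound. Agpat2, the acyltransferase that acts after Gpam, had 331 in CHIR+ and 507 in CHIR-, 1.53-fold lower. A log2 ratio between -0.80 and -1 was seen for 9 of the 37 genes, so the count of lower genes depends on where the threshold is placed.

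The lipases differed from each other. Liph, which cleaves phosphatidic acid to lysophosphatidic acid and is not a triglyceride lipase, was below the floor at 11.1 in CHIR+ and had 366 in CHIR-, at least 28.7-fold lower. Its other probe set had 8.03, again below the floor, and 66.1, at least 5.19-fold lower. Pnpla2, the adipose triglyceride lipase, had 82.2 in CHIR+ and 114 in CHIR-, 1.39-fold lower. Lipa, the acid lipase of lysosomes, had 372 in CHIR+ and 302 in CHIR- by its brightest probe set, 1.23-fold higher, but 117 and 199 by another. Of the 12 measured genes of the storage group 0 were higher, 5 were lower (41.7% against the background of 18.4%) and 7 were within 2-fold. After loess 3 of the 12 were lower.

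All 6 oxidation genes had a lower signal in CHIR+ by their brightest probe sets, and 2 of them passed 2-fold. A higher signal in CHIR+ was seen for 22.6% of all measured genes. A lower signal alone thus did not set these 6 genes apart from most genes on the array. Hadha, the alpha subunit of the mitochondrial trifunctional protein that carries out later steps of beta-oxidation, had 179 in CHIR+ and 452 in CHIR-, 2.53-fold lower. Hadhb, its beta subunit, had 1296 in CHIR+ and 1679 in CHIR-, 1.30-fold lower, and its other probe sets were lower by 1.57-fold and 1.68-fold. Hadha had 1 probe set, so its larger difference rests on that one reading.

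Acadm, the medium-chain acyl-CoA dehydrogenase, had 871 in CHIR+ and 1857 in CHIR-, 2.13-fold lower, and Acadl, the long-chain form, had 1751 and 3433, 1.96-fold lower. Cpt1a, which commits fatty acids to mitochondrial import, had 471 in CHIR+ and 614 in CHIR-, 1.30-fold lower, and its other probe sets were lower by 1.73-fold and 1.57-fold. Cpt2, its partner on the inner membrane, had 202 in CHIR+ and 304 in CHIR-, 1.51-fold lower, while its dim probe set had 41.9 and 27.5, 1.52-fold higher. Of the 6 genes 0 were higher, 2 were lower (33.3% against the background of 18.4%) and 4 were within 2-fold, with a median log2 ratio of -0.78 against -0.42 over all measured genes. Cpt1a and Hadhb lay above the median gene. After loess 0 of the 6 reached 2-fold, and the ratio of Cpt1a was 0.02.

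After loess the medians of the subgroups kept their order apart from uptake and storage. The median log2 ratio was then -0.67 for uptake and activation, -0.54 for triglyceride storage, -0.44 for oxidation, -0.30 for synthesis and 0.14 for desaturation, against 0.06 over all measured genes.

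**Figure D4:**
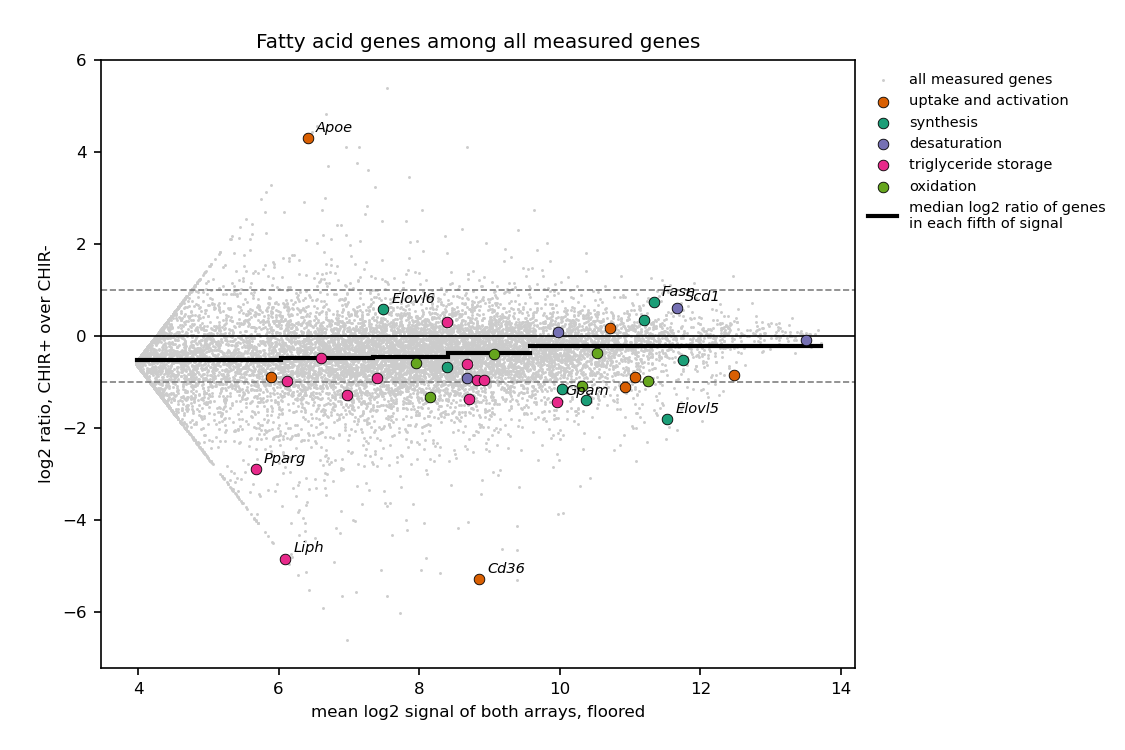
Log2 ratio of CHIR+ over CHIR- (y axis) against the mean log2 signal of both arrays (x axis) for all 12917 measured genes in grey and the 37 fatty acid genes in colour by subgroup, with black bars for the median ratio in each of 5 equal groups by signal. Cd36 lies at -5.30 and Liph at -4.85, Apoe lies at 4.31, and Fasn, Scd1 and Elovl6 lie above the black bars at their signal.

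Other genes of the same pathways were read in the same way. They were listed by pathway membership, with earlier results of these data known. Of 116 such genes 87 were measured, and 3 were at least 2-fold higher in CHIR+ and 16 at least 2-fold lower, with 68 within 2-fold. The 18.4% that were lower equals the background of 18.4% over all measured genes, and the 3.45% that were higher stands beside the background of 1.9%. Their median log2 ratio was -0.55. Of 10 measured further uptake and activation genes 1 was higher (10% against the background of 1.9%) and 1 was lower (10% against 18.4%). Mfsd2a, a transporter of lysophospholipids that carry docosahexaenoic acid, had 114 in CHIR+ and 21.2 in CHIR-, 5.37-fold higher by its single probe set. Acsm1, a medium-chain acyl-CoA synthetase, was at 3.82 in CHIR+, below the floor, and at 28.0 in CHIR-, at least 2.20-fold lower.

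Among 18 further synthesis genes, 1 was higher (5.56% against the background of 1.9%) and 2 were lower (11.1% against 18.4%). Elovl2, the elongase that extends polyunsaturated acids after Elovl5, had 256 in CHIR+ and 38.0 in CHIR-, 6.72-fold higher by 1 probe set, while Elovl5 itself was 3.52-fold lower. Acss2, which makes acetyl-CoA from acetate, had 96.2 in CHIR+ and 381 in CHIR-, 3.96-fold lower, and its second probe set was 5.07-fold lower. Hacd1, a dehydratase of the elongation cycle, had 1068 in CHIR+ and 2790 in CHIR-, 2.61-fold lower. Of 5 further desaturation genes 0 were higher and 2 were lower (40% against the background of 18.4%). Fads3, a relative of Fads1 and Fads2, was 2.32-fold lower with 485 in CHIR+ and 1127 in CHIR-, and Cyb5r3, a reductase that supplies electrons through cytochrome b5, was 2.52-fold lower with 881 and 2218. The dimmer probe sets of both were lower as well, by up to 2.93-fold for Fads3 and 7.31-fold for Cyb5r3.

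Of 18 further storage genes 1 was higher (5.56% against the background of 1.9%) and 3 were lower (16.7% against 18.4%). G0s2, a protein inhibitor of Pnpla2, had 56.6 in CHIR+ and 17.0, below the floor, in CHIR-, at least 2.95-fold higher. Abhd5, the activator of Pnpla2, had 98.2 in CHIR+ and 238 in CHIR-, 2.43-fold lower, and its other measured probe set was 2.41-fold lower. The inhibitor and the activator of the same lipase thus had opposite directions, while Pnpla2 itself was within 2-fold. Mogat2, an acyltransferase that makes diglyceride from monoglyceride, had 18.7 in CHIR+, near the floor, and 42.9 in CHIR-, 2.29-fold lower.

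All 25 further oxidation genes with a probe set were measured, and 0 were higher and 6 lower, 24% against the background of 18.4%. Acaa2, the mitochondrial thiolase of the last step of beta-oxidation, had 469 in CHIR+ and 2229 in CHIR-, 4.76-fold lower, and its other probe sets were 5.88-fold and 15.0-fold lower. Decr1, the mitochondrial reductase needed for unsaturated fatty acids, had 296 in CHIR+ and 926 in CHIR-, 3.13-fold lower, though its other probe set had 82.2 and 106. Decr2, its peroxisomal counterpart, had 36.0 in CHIR+ and 176 in CHIR-, 4.90-fold lower.

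Of 11 measured genes of phosphatidylcholine synthesis, the route to the main surfactant phospholipid, 0 were higher and 2 were lower, 18.2% against the background of 18.4%. Pcyt1a, the rate-limiting enzyme of that route, had 87.0 in CHIR+ and 524 in CHIR-, 6.02-fold lower, and its 4 probe sets were lower by 3.11-fold to 6.05-fold. Chka, the choline kinase before it, had 300 in CHIR+ and 725 in CHIR-, 2.42-fold lower, and its other probe sets were 2.14-fold and 3.54-fold lower. The median log2 ratio of this list was -0.38, against -0.42 over all measured genes, so its counts and median were close to those of the array.

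**Figure D5:**
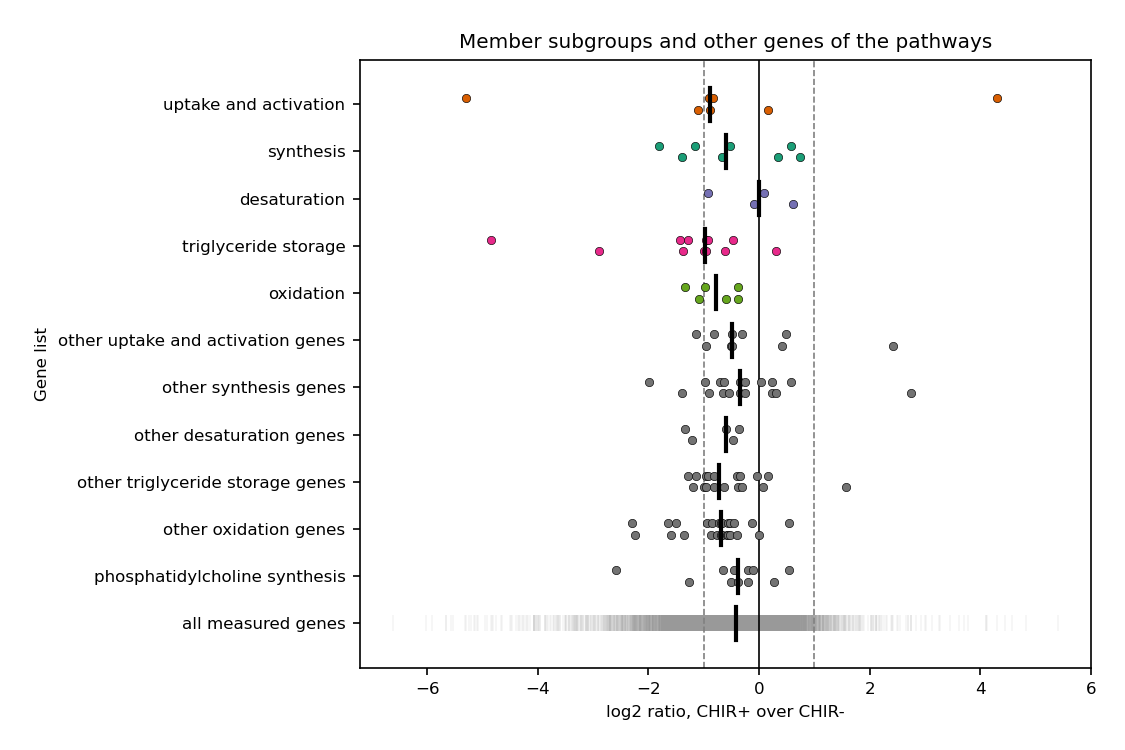
Log2 ratio of CHIR+ over CHIR- (x axis) of each measured gene, by subgroup of the 37 genes (coloured), by list of other genes of the pathways (grey) and for all measured genes (ticks), with a black bar at each median and dashed lines at 2-fold. Points of genes below the floor on 1 array are drawn at the floor. The storage group has the lowest median and the desaturation group the highest.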

How the data were processed

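The authors deposited 1 linear intensity for each probe set and array, made with MAS5 according to the submitters' processing notes. Its scaling target is not given in the sources used here. MAS5 subtracts mismatch signal, so dim values scatter. RNA input was 100 ng, amplified from the 3' end, per the labels' protocols.

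Of 45101 probe sets, 34958 named 1 gene and 932 several in the platform annotation, and 9211 were not named here. Where several probe sets named a gene alone, the one with the highest log2 signal, averaged over both arrays, stood for it. Values under the floor were raised to it, so ratios with 1 array below it are bounds, written as "at least". A gene just above the lower CHIR+ floor could thereby get a negative ratio. This affected none of the 37 genes. It did affect other genes, such as Mlxipl, at 16.0 in CHIR+ and 3.77 in CHIR- with a log2 ratio of -0.26. Such ratios are part of the background shares and medians given. A gene counted as higher or lower at 2-fold. For all 39 genes the Entrez identifier was found in the RefSeq gene table and gave the same symbol. Precision is limited by 1 array per condition, and no test was run.

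Named genes were all members, plus up to 3 genes per list of other pathway genes with the largest log2 ratio past 2-fold, and Axin2, Lef1 and Sox9. The members and lists were chosen with earlier results of these data known. Python 3.11.15, pandas 2.3.3, numpy 2.4.6 and statsmodels 0.14.6 (loess, span 0.4) were used. The procedure was tested on simulated data, with differences larger than 2-fold planted in genes above the floor on both arrays. That test does not cover calls near 2-fold or ratios that are bounds. Alternatives were median-gene centring, quantile normalization, loess, scaling on 9 hybridization controls, no floor, a floor at the 99th percentile, an offset of 16, the median over probe sets, leaving out probe sets with shared-target suffixes, and thresholds of 1.5-fold and 3-fold.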

Additional observations from a re-analysis of the deposited data

How the results depend on the processing

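The count of 1 gene at least 2-fold higher in CHIR+ (background 1.9%) became 3 after median-gene centring (background 4.9%). It was 2 after quantile normalization (background 7.39%) and 2 after loess (background 6.33%). Without probe sets of the suffixes _x_at, _s_at and _a_at, which left out the only probe set of Apoe, it was 0 (background 1.82%). At a 1.5-fold threshold it was 3 (background 5.05%). The count of 12 genes at least 2-fold lower (background 18.4%) became 5 after median-gene centring (background 8.64%). It was 6 after quantile normalization (background 6.42%), 6 after loess (background 7.13%) and 9 with hybridization control scaling (background 13.7%). At 1.5-fold it was 24 (background 38.7%) and at 3-fold it was 4 (background 6.29%). With the median over probe sets it was 18, when 20.2% of all genes were lower. The median log2 ratio of the measured genes was -0.90 on the authors' scale and -0.32 after quantile normalization, when that of all measured genes was 0.12. Median-gene centring and hybridization control scaling add 1 constant to every log2 ratio, while quantile normalization and loess shift genes by unequal amounts. The medians of the subgroups moved by less than the SD of 0.56 between probe sets of a gene under every alternative run. That SD is of single probe sets and does not measure the spread of a median over several genes. After quantile normalization the medians went from -0.98 to -0.49 for storage, -0.78 to -0.39 for oxidation and -0.60 to -0.23 for synthesis. For uptake and activation the change was from -0.88 to -0.62, and for desaturation from 0.0014 to 0.17. Of 328 values of single genes under the alternatives, 26 moved by more than that SD, and no gene past 2-fold changed sign. Dim signals near the floor limit what can be said of Pparg, Liph and the CHIR- level of Apoe. No paired analysis was possible because each condition has 1 array. No array could be left out for the same reason.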
